A study of Homo sapiens with 2 samples.

Results

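Interferon-stimulated genes were examined in RNA sequencing of a SETD2 knockout line and of its parent, the human renal carcinoma line 786-O. The set holds 41 genes, chosen by symbol: interferon-induced effectors together with a STAT and 2 IRF transcription factors. All 41 had a row in both tables, of 23375 genes in all, and all 41 passed the minimum of 10 reads in the 2 libraries summed, as 16894 genes did. The knockout line is labelled 786-O with SETD2 disrupted by a zinc finger nuclease, an engineered enzyme that breaks DNA where its fingers bind. The wild-type line is labelled 786-O, a line of clear cell renal carcinoma without functional VHL. Both were grown in RPMI1640 medium with fetal bovine serum, and the labels name only medium as treatment. Whether the knockout line is 1 clone is not given in the sources used here. Each line had 1 library, so there is no replicate error, and every difference is one between these libraries and may not hold for the genotypes.

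Interferons are secreted cytokines that cells release after sensing viral nucleic acid. Type I and type III interferons bind their receptors, which activate JAK kinases, and these phosphorylate STAT proteins. STAT2 joins another STAT and IRF9 in a complex that binds the interferon-stimulated response element, a repeat of GAAA in the promoters of its targets. The induced proteins block viral entry, translation, replication and release, and some of them feed back on the pathway. Many epithelial and tumour cells keep a basal level of these transcripts without added interferon. SETD2 places the trimethyl mark on H3K36 along transcribed genes.

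The knockout library held 50670012 fragments in genes and the wild-type library 62304084. SETD2 itself had 1404 fragments in the knockout and 4908 in the wild-type library, a ratio of 0.334 (interval 0.314 to 0.354). Ratios are knockout over wild type, from fragments after TMM (trimmed mean) scaling. Their exact 95% intervals cover counting error only. The levels beside them are the RPKM values of the authors, which are per gene length and can be compared between genes. A gene was called higher when its whole interval lay above 2-fold, and lower when it lay below 0.5-fold. The renal markers PAX8, VIM, KRT8 and KRT18 were present, with VIM at 1192 RPKM in the knockout and 1734 RPKM in the wild-type library. In a bulk library, more cells that express a gene and more RNA per cell cannot be told apart.

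Of the 41 interferon-stimulated genes, 14 were higher in the knockout library, 1 was lower and 26 were neither. Over all tested genes, 5.75% were higher and 3.37% lower by the same rule. The median log2 ratio of the 41 genes was 0.84, a ratio of 1.80, against 0.02 for all tested genes. A ratio above 1 was found for 33 of the 41, against 51.1% of all tested genes. The list described is one that earlier results of these data had already shown to be higher, so these counts are a description and no test. The genes higher by the largest factors were RSAD2, OASL, IFITM1, CMPK2, OAS2, HERC5, OAS1 and MX2, and the lower gene was EPSTI1. With an interval wholly above 4-fold there were 4 genes, RSAD2, OASL, CMPK2 and HERC5, against 1.88% of all tested genes, and none was below 0.25-fold, against 1.01%. With a limit of 1.5-fold, 21 members were higher, against 10.4% of all tested genes, and 2 were lower, against 9.17%. Of the 26 that were neither, 12 had ratios above 1.5, 13 ratios within 1.5-fold of 1, and 1, GBP2, a ratio below that range.

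**Figure D1:**
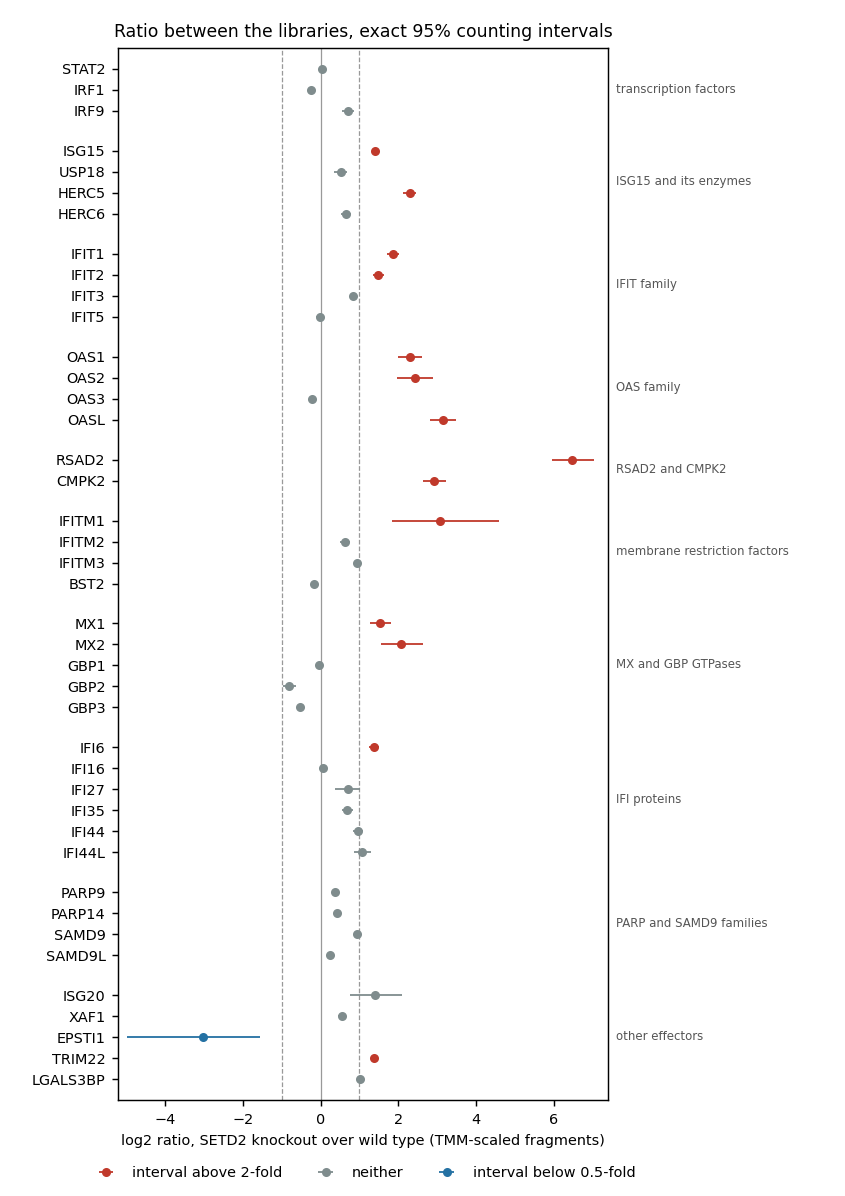
Log2 ratio of the knockout over the wild-type library for the 41 genes, grouped by role, with exact 95% counting intervals (1 library per line, so no replicate error); the dashed lines mark 2-fold. RSAD2 lies far to the right of the others at a ratio of 88.5. Intervals of 14 genes lie beyond the right dashed line, and EPSTI1 alone lies beyond the left one. The ratios drawn here have no added fragments.

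The response element was searched for in promoter sequences from RefSeq (build GRCh38.p14), each of 250 bases before to 50 bases after a gene's start. The letters searched were GAAANNGAAA on both strands, and matches may overlap. By symbol, 33 of the 41 genes had an entry, and USP18, IFIT2, OAS2, OASL, IFITM2, MX2, GBP2 and TRIM22 had none. Of the 33, 23 held the motif in at least 1 window, against 4.38% of 27305 genes in the RefSeq table. The motif was in 7 of the 9 higher genes with an entry and in 16 of the 24 that were not higher. Below are stretches of 6 higher genes that hold it, 5′ to 3′ along the gene, with each match in capitals, shown because they are the motif through which the pathway is known to act. Only matches before the start are shown, with up to 20 bases on each side.
RSAD2 (chr2:6877612-6877661, plus strand): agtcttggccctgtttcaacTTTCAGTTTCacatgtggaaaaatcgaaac
HERC5 (chr4:88456974-88457074, plus strand): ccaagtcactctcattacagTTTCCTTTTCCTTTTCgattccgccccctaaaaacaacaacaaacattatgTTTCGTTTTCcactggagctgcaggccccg
IFIT1 (chr10:89392487-89392549, plus strand): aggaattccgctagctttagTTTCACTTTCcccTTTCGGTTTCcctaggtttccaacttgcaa
ISG15 (chr1:1013364-1013419, plus strand): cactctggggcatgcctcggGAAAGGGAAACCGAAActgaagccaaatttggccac
IFI6 (chr1:27672256-27672368, minus strand): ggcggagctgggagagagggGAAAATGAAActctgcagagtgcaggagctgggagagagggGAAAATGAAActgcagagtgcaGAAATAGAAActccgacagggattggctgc
IFITM1 (chr11:313980-314029, plus strand): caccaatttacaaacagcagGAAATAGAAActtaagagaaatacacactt
In HERC5 and ISG15, matches overlap, so that several GAAA units (or their complement) follow each other. The RSAD2 entry is the one of its 2 starts whose window held a match.

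The next 4 stretches are from genes that hold the same motif and were not higher in the knockout library.
IFIT5 (chr10:89414503-89414567, plus strand): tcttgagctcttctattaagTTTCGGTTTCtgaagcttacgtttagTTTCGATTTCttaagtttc
OAS3 (chr12:112938311-112938473, plus strand): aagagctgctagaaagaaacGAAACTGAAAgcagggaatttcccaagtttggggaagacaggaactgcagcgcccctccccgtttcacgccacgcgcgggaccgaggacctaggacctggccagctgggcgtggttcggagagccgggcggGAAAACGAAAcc
BST2 (chr19:17405725-17405780, minus strand): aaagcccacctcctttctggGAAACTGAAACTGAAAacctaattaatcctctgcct
EPSTI1 (chr13:42992262-42992311, minus strand): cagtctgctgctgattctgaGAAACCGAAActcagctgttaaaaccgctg
IFIT5, OAS3 and BST2 had ratios between 0.860 and 0.986, and EPSTI1 was lower. Across the 23 genes with the motif, ratios ran between 0.123 and 88.5 with a median of 1.92. The 10 genes with an entry and no match had ratios between 0.839 and 7.57 with a median of 1.52. The motif was thus present in the windows of genes at both ends of the range. A second motif, TTCNNNGAA, is a palindrome bound by STAT dimers, and it was in 11 of the 33 genes, against 9.38% of genes in the table. It was in 3 of the 9 higher genes and in 8 of the 24 others. IRF1, IRF9, OAS1 and IFI35 held this motif and not GAAANNGAAA. A match is only a run of letters, and binding was not measured.

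None of the 3 transcription factors of the set was called higher or lower. STAT2, a subunit of the complex that binds the response element, had 7.97 RPKM in the knockout and 7.3 RPKM in the wild-type library. Its ratio was 1.03 (interval 0.979 to 1.09), an interval that holds 1. IRF9, the DNA-binding subunit of that complex, had 6.18 RPKM in the knockout and 3.59 RPKM in the wild-type library, a ratio of 1.63 (1.45 to 1.83). IRF1, a factor induced mainly by interferon gamma, had 12.7 RPKM in the knockout and 14.4 RPKM in the wild-type library, a ratio of 0.839 (0.801 to 0.878). IRF9 was the 1 of them with a ratio above 1.5. The 50 closest genes with at least 100 reads had a median log2 ratio of -0.38 for STAT2, 0.08 for IRF9 and 0.06 for IRF1. Relative to those medians the log2 ratios were 0.43 for STAT2, 0.62 for IRF9 and -0.31 for IRF1.

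ISG15 is a ubiquitin-like protein that is secreted and also attached to other proteins. It had 71.1 RPKM in the knockout library, from 3294 fragments, and 25.4 RPKM in the wild-type library, from 1451 fragments. The ratio was 2.65 (2.49 to 2.82), and ISG15 stood in the knockout library as the fourth most abundant of the 41 genes per length. HERC5, the main ligase that attaches ISG15 to new proteins, had 6.21 RPKM in the knockout and 1.20 RPKM in the wild-type library, a ratio of 4.91 (4.37 to 5.52). HERC6 (chromosome 4, in one cluster with HERC5), a ligase that takes this role in mice, had 4.05 RPKM in the knockout and 2.44 RPKM in the wild-type library. Its ratio of 1.57 (1.44 to 1.73) was below the limit of a call. HERC5 was thus at 1.53 times the level of HERC6 in the knockout library and at 0.492 times in the wild-type library. USP18, the protease that removes ISG15 and damps signalling at the receptor, had 4.59 RPKM in the knockout and 3.03 RPKM in the wild-type library, a ratio of 1.43 (1.28 to 1.61). Other enzymes of ISG15 attachment had ratios above 1 as well. UBE2L6, the conjugating enzyme, was higher with 21.7 RPKM in the knockout and 8.65 RPKM in the wild-type library, a ratio of 2.38 (2.22 to 2.54). UBA7, the activating enzyme, had a ratio of 1.59 (1.47 to 1.72), and TRIM25, a ligase that also acts on RNA sensing, had 31.1 RPKM in the knockout and 19.6 RPKM in the wild-type library, with an interval of the ratio of 1.46 to 1.54.

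The IFIT proteins bind foreign RNA and restrain its translation, and their 4 genes lie within 119 kb of chromosome 10 (hg19, 91061706 to 91180759). IFIT1, which binds RNA lacking a methylated cap, had 12.2 RPKM in the knockout and 3.18 RPKM in the wild-type library, a ratio of 3.64 (3.30 to 4.04). IFIT2 had 5.76 RPKM in the knockout and 1.95 RPKM in the wild-type library, a ratio of 2.80 (2.54 to 3.09). IFIT3, a partner that stabilises IFIT1, had 21.0 RPKM in the knockout and 11.1 RPKM in the wild-type library, a ratio of 1.80 (1.71 to 1.89). IFIT5, at the opposite end of the cluster from IFIT2, had 6.55 RPKM in the knockout and 6.29 RPKM in the wild-type library, a ratio of 0.986 (0.926 to 1.05) that was just above 1 with total count or upper quartile scaling. The order of levels therefore differed between the libraries: IFIT1 stood at 1.87 times IFIT5 in the knockout and at 0.506 times in the wild-type library. The genes next to the cluster were LIPA at a ratio of 1.10 and SLC16A12 at 0.515.

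The OAS proteins sense double-stranded RNA and make oligoadenylates, second messengers that lead to the decay of RNA in the cell. OAS1 had 3.21 RPKM in the knockout and 0.622 RPKM in the wild-type library, a ratio of 4.89 (3.94 to 6.10). OAS2 had 230 fragments in the knockout and 50 in the wild-type library, a ratio of 5.37 (3.94 to 7.44). OAS3, which lies between them on chromosome 12 (the cluster spans 113344739 to 113449528), had 12.1 RPKM in the knockout and 13.3 RPKM in the wild-type library. Its ratio was 0.860 (0.831 to 0.891), so that both flanking genes were higher and the middle one was not. For OAS1, OAS2 and OAS3 alike, the 50 closest genes with at least 100 reads had a median log2 ratio of -0.45. Relative to that median the log2 ratios were 2.73 for OAS1, 2.86 for OAS2 and 0.23 for OAS3. OAS3 was the most abundant of the family in both libraries, at 3.76 times OAS1 in the knockout and 21.4 times in the wild-type library. OASL, a relative without synthetase activity that enhances RNA sensing, lies elsewhere on chromosome 12. It had 641 fragments or 5.06 RPKM in the knockout and 85 fragments or 0.545 RPKM in the wild-type library, a ratio of 8.80 (7.01 to 11.2).

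RSAD2 and CMPK2 are neighbours on chromosome 2 (6980684 to 7038363) and act together. CMPK2 supplies the nucleotide from which RSAD2, also called viperin, makes a chain terminator of viral RNA synthesis. RSAD2 had 2352 fragments or 9.63 RPKM in the knockout and 31 fragments or 0.103 RPKM in the wild-type library. The ratio of 88.5 (62.2 to 131) was number 246 among all tested genes, many of which had few fragments. CMPK2 had 733 fragments or 2.54 RPKM in the knockout and 113 fragments or 0.318 RPKM in the wild-type library, a ratio of 7.57 (6.20 to 9.31). Per length, RSAD2 was at 3.79 times CMPK2 in the knockout library and at 0.324 times in the wild-type library. RSAD2 was at rank 18 of the 41 genes by level in the knockout library, against rank 39 in the wild-type library. On one side the nearest gene with at least 100 reads, RNF144A, was also higher, with a ratio of 2.84 (2.56 to 3.16). On the other side the nearest such gene, RPS7, lay 3352 kb away and had a ratio of 0.954 that was just above 1 with total count or upper quartile scaling.

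**Figure D2:**
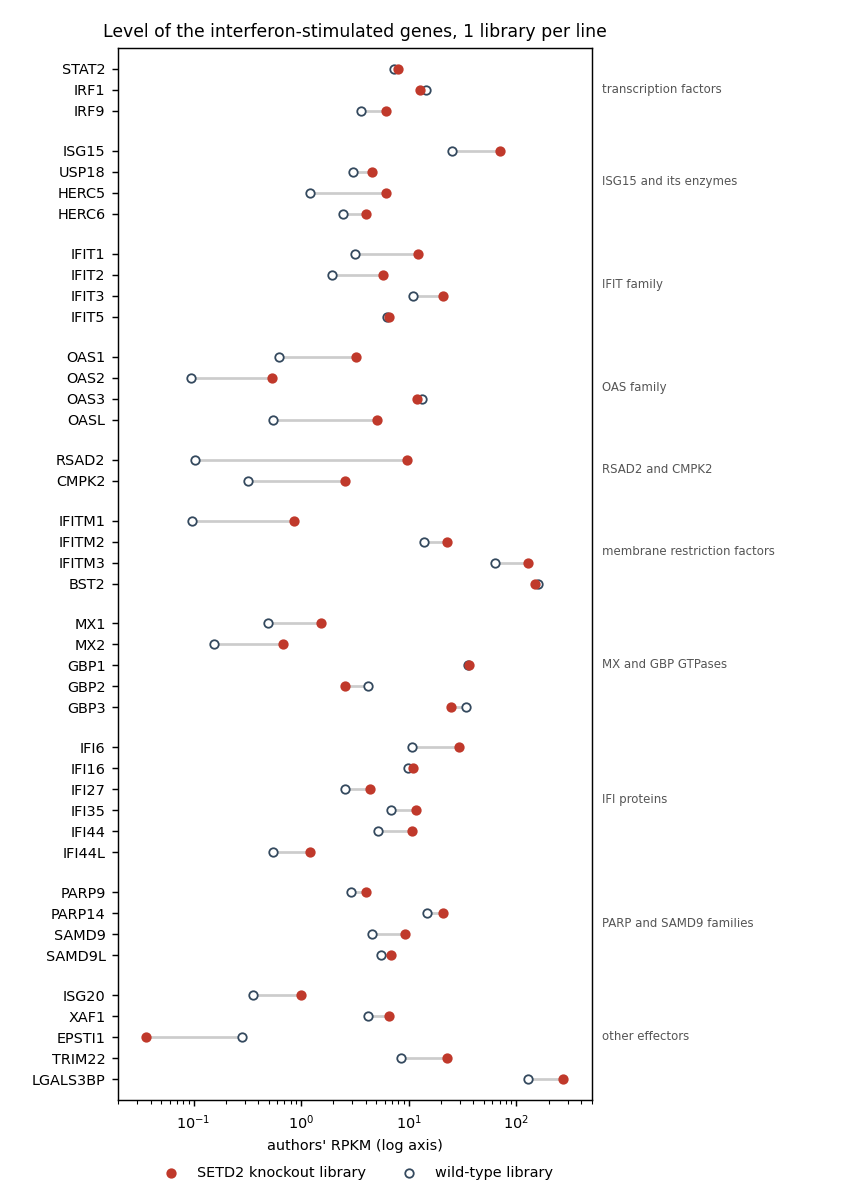
RPKM values of the authors for the 41 genes in the knockout library (filled) and the wild-type library (open), on a log axis, grouped by role, with 1 library per line. RSAD2, OAS2, IFITM1 and MX2 lie below 0.2 RPKM in the wild-type library, while LGALS3BP, BST2 and IFITM3 lie to the right in both.

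Proteins that act at membranes were among the most abundant of the set. BST2, or tetherin, holds budding virus at the cell surface, and it had 150 RPKM in the knockout and 160 RPKM in the wild-type library, a ratio of 0.890 (0.867 to 0.914). IFITM proteins stop fusion of incoming virus, and their genes lie within 12.8 kb of chromosome 11 (308107 to 320914). IFITM3 had 129 RPKM in the knockout and 63.8 RPKM in the wild-type library, a ratio of 1.91 (1.83 to 1.99). IFITM2 had 22.6 RPKM in the knockout and 13.9 RPKM in the wild-type library, a ratio of 1.53 (1.40 to 1.68). IFITM1 was called higher on few fragments, 43 in the knockout and 6 in the wild-type library, with a ratio of 8.36 and a wide interval of 3.54 to 24.0. These 3 genes are near-identical in parts, and reads can be shared between such copies, so their split is uncertain. B4GALNT4, on one side of this cluster, was higher with a ratio of 4.07, and ATHL1, on the other, had 1.76.

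Of the 5 GTPases of the set, both MX genes were higher and the 3 GBP genes were not called. MX1, which traps viral nucleocapsids, had 380 fragments in the knockout and 153 in the wild-type library, a ratio of 2.90 (2.40 to 3.52). MX2, which restricts retroviruses at the nuclear pore, had 141 fragments in the knockout and 39 in the wild-type library, a ratio of 4.22 (2.94 to 6.18). The MX genes lie side by side on chromosome 21. Guanylate-binding proteins attack vacuoles of intracellular pathogens and are induced mostly by interferon gamma. GBP1 had 36.1 RPKM in the knockout and 35.3 RPKM in the wild-type library, a ratio of 0.967 (0.938 to 0.997) that was also just above 1 with total count or upper quartile scaling. GBP3 had 24.97 RPKM in the knockout and 34.0 RPKM in the wild-type library, a ratio of 0.695 (0.671 to 0.719). GBP2 had 461 fragments in the knockout and 938 in the wild-type library, a ratio of 0.573 (0.512 to 0.642). All 3 lie in a stretch of chromosome 1 (89472360 to 89591799) where the 50 closest genes with at least 100 reads had a median log2 ratio of -0.55 to -0.51. Relative to those neighbours the log2 ratios were 0.50 for GBP1, 0.01 for GBP3 and -0.29 for GBP2. GBP4, the next gene of that family, is outside the 41 and was higher with 1015 fragments in the knockout and 341 in the wild-type library, a ratio of 3.47 (3.07 to 3.94). GBP genes resemble each other closely, so the split of reads among them is uncertain.

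The IFI proteins are named for induction by interferon and have varied roles. IFI6, a small mitochondrial and endoplasmic reticulum protein that restricts flaviviruses, had 29.3 RPKM in the knockout and 10.7 RPKM in the wild-type library, a ratio of 2.59 (2.38 to 2.82). It was the 1 gene of the 6 that was called. IFI44L had 496 fragments in the knockout and 274 in the wild-type library, a ratio of 2.11 whose interval of 1.82 to 2.46 reached below 2-fold. IFI44, its neighbour on chromosome 1, had a ratio of 1.94 (1.77 to 2.13). IFI27 had 199 fragments in the knockout and 143 in the wild-type library, a ratio of 1.62 (1.30 to 2.03), and IFI35 had a ratio of 1.61 (1.46 to 1.77). IFI16, a nuclear DNA sensor, had 10.9 RPKM in the knockout and 9.90 RPKM in the wild-type library, a ratio of 1.04 (0.986 to 1.11). All 6 ratios were above 1, between 1.04 and 2.59.

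Of the PARP and SAMD9 families, 4 genes had ratios between 1.18 and 1.92 and none was called. SAMD9, a factor that restricts poxviruses, had 9.29 RPKM in the knockout and 4.59 RPKM in the wild-type library, a ratio of 1.92 (1.83 to 2.01). Its paralogue SAMD9L had 6.85 RPKM in the knockout and 5.50 RPKM in the wild-type library, a ratio of 1.18 (1.12 to 1.24). Both lie in a part of chromosome 7 where the 50 closest genes with at least 100 reads had a median log2 ratio of -0.82. Relative to that median the log2 ratios were 1.76 for SAMD9 and 1.05 for SAMD9L. PARP9 and PARP14, mono-ADP-ribosylation proteins that act on STAT signalling, had ratios of 1.29 (1.22 to 1.38) and 1.34 (1.30 to 1.37). PARP14 had 20.9 RPKM in the knockout and 14.8 RPKM in the wild-type library. PARP9 was the 1 gene of the 41 whose row overlapped another, DTX3L, its partner ubiquitin ligase, which had a ratio of 1.03 (0.998 to 1.07).

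The remaining effectors held both the most abundant gene in the knockout library and the 1 lower gene. LGALS3BP, a secreted glycoprotein, had 42942 fragments or 273 RPKM in the knockout and 25005 fragments or 129 RPKM in the wild-type library. Its ratio of 2.003 (1.97 to 2.04) lay on the 2-fold limit, and the whole interval passed it with total count or upper quartile scaling. TRIM22, a ubiquitin ligase that restricts retroviruses, had 22.9 RPKM in the knockout and 8.39 RPKM in the wild-type library, a ratio of 2.59 (2.46 to 2.72). ISG20, an exonuclease, had 66 fragments in the knockout and 29 in the wild-type library, a ratio of 2.65 with an interval of 1.69 to 4.26 that reached below 2-fold. XAF1, a promoter of apoptosis, had a ratio of 1.47 (1.36 to 1.58). EPSTI1, an epithelial and stromal interferon-induced protein, had 4 fragments in the knockout and 38 in the wild-type library, and its ratio was 0.123 (0.0318 to 0.341). At 0.0366 RPKM in the knockout and 0.282 RPKM in the wild-type library, EPSTI1 was near the limit of detection in the knockout library.

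Members that were low in the wild-type library had the larger ratios. Of 11 members under 1 RPKM in the wild-type library, 8 were higher in the knockout library and 1 lower, against 13.8% higher among all tested genes at that level. At 1 to 5 RPKM, 3 of 11 were higher, against 2.79% of all tested genes. At 5 to 20 RPKM, 2 of 13 were higher, against 0.855%, and at 20 RPKM or more, ISG15 alone of 6 was higher, against 0.759%. The median log2 ratio of the members in these 4 classes, lowest level first, was 2.28, 0.70, 0.42 and 0.44, and that of all tested genes was 0.48, 0.02, -0.07 and -0.17. A ratio shares the wild-type count with the level that sets the class, so a drop over the classes is partly built in, as the values for all tested genes show. The summed CPM (fragments scaled to the library) of the 41 genes differed less than their median ratio of 1.80. It was 2698 in the knockout and 1860 in the wild-type library, a ratio of 1.45, and without LGALS3BP it was 1872 and 1448, a ratio of 1.29. LGALS3BP, BST2 and IFITM3 made up 56.8% of the summed RPKM of the set in the knockout and 57.6% in the wild-type library. Of these, LGALS3BP and IFITM3 had ratios of 2.003 and 1.91, above that median, and BST2 one of 0.890. By level, 17 members reached 10 RPKM in the knockout library, against 12 in the wild-type library, and 5 were under 1 RPKM, against 11.

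**Figure D3:**
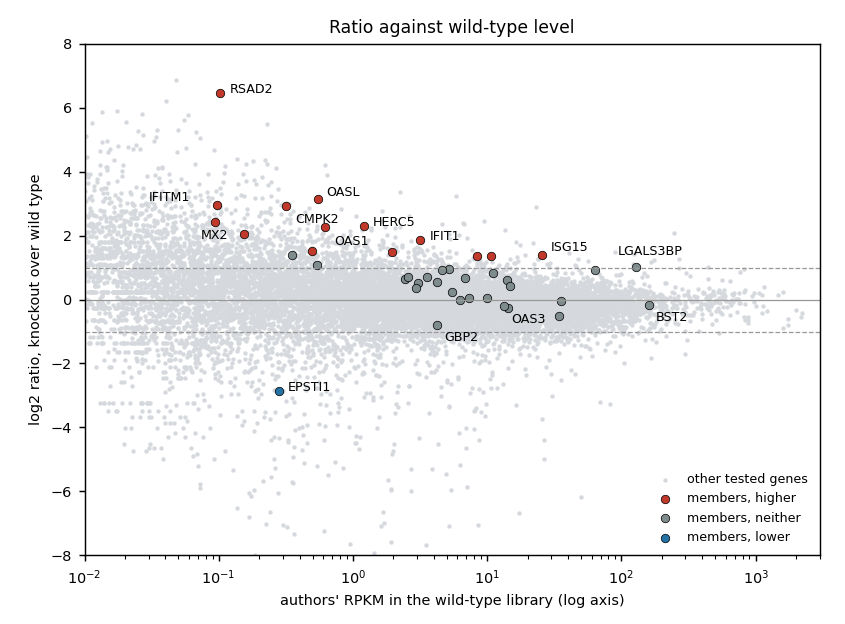
Log2 ratio of the knockout over the wild-type library against the wild-type RPKM of the authors (log axis), with 16136 of the tested genes drawn and 758 outside the axes (grey), and the 41 members coloured by call (1 library per line, dashed lines at 2-fold). The members with the largest ratios, such as RSAD2 and OASL, are below 1 RPKM in the wild-type library, and BST2 and OAS3, at higher levels, lie near 0.

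Members lie in 10 clusters, with 25 of the 41 within 500 kb of another member. Of these 25, 10 were higher, against 5.75% of all tested genes. In 4 clusters, those of the IFIT, IFITM, OAS and HERC genes, higher members stood beside members that were not. Within a cluster, the highest ratio was 11.7 times the lowest for CMPK2 and RSAD2, 6.24 times for OAS, 5.46 times for IFITM and 3.70 times for IFIT. It was 1.03 times for PARP9 and PARP14 and 1.09 times for IFI44 and IFI44L. Of 62 other genes with at least 100 reads within 400 kb of a cluster's centre, 5 were higher and 3 lower. The shares over all tested genes were 5.75% and 3.37%. The median log2 ratio of the 62 was -0.05. They include interferon-induced genes outside the 41, such as GBP4, which was higher. PTGFR, also among the 62 and next to IFI44L, was lower with 159 fragments in the knockout and 1212 in the wild-type library. Its ratio was 0.153 (0.129 to 0.181). Set against the median log2 ratio of its 50 closest genes with at least 100 reads, 37 of the 41 members had a log2 ratio above 0, 16 were higher and 1 lower, and the median was 0.90. Over all genes read in this way, 5.9% were higher and 2.54% lower, and the median log2 ratio was 0.04. SAMD9 and LGALS3BP were the 2 added by this reading.

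**Figure D4:**
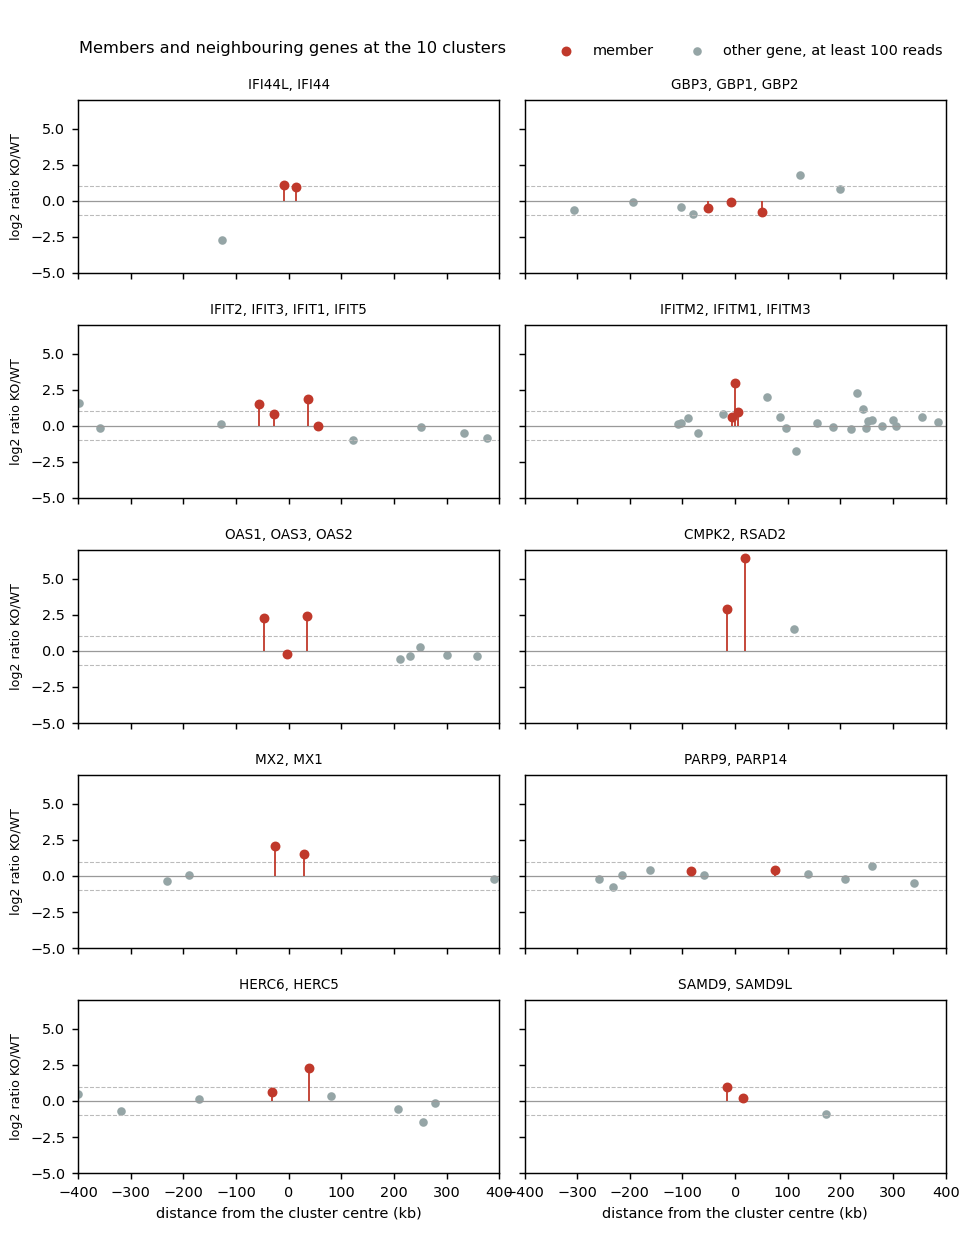
Log2 ratio of the knockout over the wild-type library against distance from the centre of each of the 10 member clusters, in kb, for members (red) and other genes with at least 100 reads (grey), with dashed lines at 2-fold (1 library per line). OAS3 lies near 0 between OAS1 and OAS2, and most grey points lie between the dashed lines.

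Upstream of the response, transcripts of the interferons themselves were almost absent. Of 21 interferon genes listed, 15 had no fragment in either library, which allows up to 0.0577 CPM in the knockout and 0.0494 CPM in the wild-type library (3 fragments, counting error only). IFNB1, the interferon that most cell types can make, had 4 fragments in the knockout and 0 in the wild-type library, below the 10 reads needed for a ratio. IFNA1, IFNA5, IFNA16 and IFNW1 had 1 fragment each in the knockout and 0 in the wild-type library. IFNE, an interferon of epithelia, had 26 fragments in the knockout and 23 in the wild-type library, a ratio of 1.32 (0.723 to 2.42). Without IFNE, the other 20 genes had 8 fragments in the knockout and 0 in the wild-type library. Over all 21 genes the sum was 34 fragments in the knockout and 23 in the wild-type library. Its ratio was 1.72 (0.986 to 3.07), an interval that holds 1. IFNE gave most of these fragments, so that interval says little of the other 20 genes, for which none was computed. Interferon protein was not measured.

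Receptors and kinases were expressed in both libraries. The IFNAR1 subunit of the type I receptor had 13.2 RPKM in the knockout and 13.1 RPKM in the wild-type library, a ratio of 0.952 (0.919 to 0.986) that was just above 1 with total count or upper quartile scaling. Its partner IFNAR2 was lower, with 9.54 RPKM in the knockout and 19.4 RPKM in the wild-type library, a ratio of 0.467 (0.443 to 0.491). With total count or upper quartile scaling its interval no longer lay wholly below 0.5-fold. IL28RA, the specific subunit of the type III receptor, was also lower, with 118 fragments in the knockout and 378 in the wild-type library, a ratio of 0.364 (0.294 to 0.449). These were the 2 called of 6 receptor genes, against 3.37% of all tested genes that were lower, and IL28RA alone was called under those scalings. IL10RB, the other subunit of the type III receptor, had a ratio of 0.931, and the interferon gamma receptor genes IFNGR1 and IFNGR2 had ratios of 1.25 and 0.793. Of the kinases, JAK1 had 95.8 RPKM in the knockout and 73.2 RPKM in the wild-type library, a ratio of 1.24 (1.22 to 1.26). TYK2 had a ratio of 1.13 and JAK2 a ratio of 0.834, and none of the 3 was called.

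Of 5 other STAT factors, STAT5A was lower and none was higher, and none of the 5 other IRF factors reported here was called. STAT5A, a factor of growth hormone and cytokine receptors, had 11 fragments in the knockout and 677 in the wild-type library, a ratio of 0.0190 (0.00942 to 0.0341). Its neighbour and close paralogue STAT5B had 1383 fragments in the knockout and 1795 in the wild-type library, a ratio of 0.899 (0.837 to 0.965). IRF3, which induces interferon beta after RNA or DNA sensing, had 15.5 RPKM in the knockout and 15.3 RPKM in the wild-type library, a ratio of 0.954 (0.901 to 1.01) that likewise was just above 1 with total count or upper quartile scaling. STAT3 had a ratio of 1.12, STAT6 one of 0.574, IRF2 one of 1.10 and IRF5 one of 0.636. Of 9 negative regulators, none was called. Ratios were below 1 for 8 of them, against 8253 of 16894 tested genes, and the median ratio of the 9 was 0.854. Of the 8, PIAS3 was just above 1 with those scalings. SOCS1, the feedback inhibitor of JAK kinases that interferon induces, had 65 fragments in the knockout and 173 in the wild-type library, a ratio of 0.438 (0.324 to 0.586). SOCS3 had a ratio of 0.687 and PTPN11, a phosphatase with many substrates, a ratio of 0.569.

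Further interferon-induced genes that are not among the 41 were listed with results of these data known. Of 42 of them tested, 4 were higher and none lower, against 5.75% higher and 3.37% lower of all tested genes, and their median log2 ratio was 0.05. The 4 were GBP4, LY6E, APOBEC3F and SP110. LY6E, a surface protein that blocks coronavirus entry, had 79.9 RPKM in the knockout and 22.1 RPKM in the wild-type library, a ratio of 3.43 (3.26 to 3.60). APOBEC3F, a cytidine deaminase that mutates retroviral DNA, had 434 fragments in the knockout and 169 in the wild-type library, a ratio of 2.99 (2.50 to 3.60), and its paralogue APOBEC3G had a ratio of 1.54. SP110, a nuclear body protein, had 9.62 RPKM in the knockout and 3.78 RPKM in the wild-type library, a ratio of 2.41 (2.24 to 2.60). APOL1, a trypanolytic factor and the most abundant gene of this list, was not called, at 278 RPKM in the knockout and 299 RPKM in the wild-type library (ratio 0.881, 0.871 to 0.890). EIF2AK2, a kinase that stops translation on sensing double-stranded RNA, had a ratio of 1.08, ADAR, an RNA editor, one of 0.825, and TNFSF10, a death ligand, one of 0.807. CXCL10, a chemokine that interferon induces strongly, had 24 fragments in the knockout and 41 in the wild-type library, a ratio of 0.683 (0.395 to 1.16). ETV7 had 25 fragments in the knockout and 89 in the wild-type library, a ratio of 0.328 (0.201 to 0.515) that was just short of a call. Promoter entries were found for 28 genes of this list, and 17 of them held GAAANNGAAA.

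**Figure D5:**
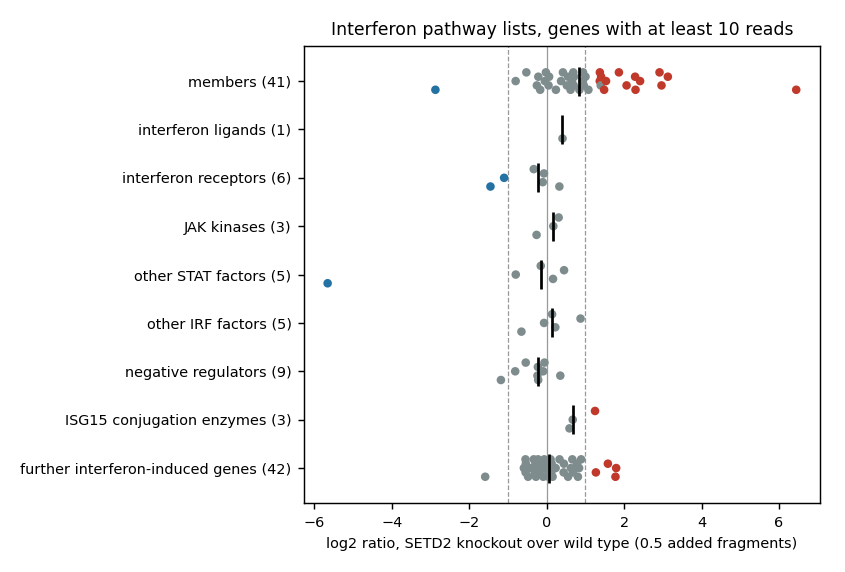
Log2 ratio of the knockout over the wild-type library for the 41 members and for 8 lists of the interferon pathway, for genes with at least 10 reads (number in brackets); red and blue points have intervals beyond 2-fold, black bars are medians (1 library per line). The members have a median of 0.84 and the further interferon-induced genes one of 0.05, and STAT5A is the point at the far left.

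Markers of leukocytes, a cell type with a high interferon response, were at low levels. PTPRC had 1 fragment in the knockout and 2 in the wild-type library, MS4A1 had 0 in the knockout and 1 in the wild-type library, and CD3E and CLEC4C had 0 in both. Of the 11 leukocyte markers, 8 had a fragment in the knockout and 8 in the wild-type library, and all 11 summed to 237 fragments in the knockout and 292 in the wild-type library. CSF1R gave the most of these, 68 in the knockout and 198 in the wild-type library. Its ratio of 0.40 (0.30 to 0.53) was below 1 and was not called. ITGAM had 61 fragments in the knockout and 45 in the wild-type library. HLA-DRA, which interferon gamma also induces, had 33 fragments in the knockout and 3 in the wild-type library, and CD14 had 38 in the knockout and 7 in the wild-type library. These 2 were the leukocyte markers that were called higher. The 5 endothelial markers summed to 28 fragments in the knockout and 32 in the wild-type library. The 5 fibroblast markers summed to 915 in the knockout and 742 in the wild-type library, of which COL1A1 had 805 in the knockout and 418 in the wild-type library. The fibroblast markers LUM and COL1A2 were lower, with 79 and 0 fragments in the knockout and 251 and 14 in the wild-type library. The part of such cells in the values of the 41 genes was not tested.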

How the data were processed

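Each library has its own table, in which the authors give every gene a raw count, an RPKM and a length, per the file headers. The submitters' processing notes name hg19, TopHat2 2.0.6, Bowtie and HTSeq. The sources used here do not give the settings, the annotation release or the use of strand. RPKM values as deposited equal the count over the gene's length and over a constant of the library, its total, and the counts add up to 72.9% of that total in the knockout and 72.7% in the wild-type table.

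All counts were even, so they were divided by 2 to give fragments. The Y row was dropped for 23 genes listed on both X and Y, which left 23375 rows. Libraries were scaled by TMM in edgeR 4.0.16 (R 4.3.3) on genes with at least 10 reads. Ratios have exact conditional (Clopper-Pearson) 95% intervals (SciPy 1.17.1), and log2 ratios used 0.5 added fragments. No p-value was computed, since 1 library per line gives no replicate error. The members, lists and rules were chosen with earlier results of these data known. Named were all members, genes of the lists, markers, SETD2 and the nearest genes with at least 100 reads beside each cluster. Some genes of the pathway and marker lists are not reported here and are left out of the lists' counts. Older symbols were matched through RefSeq synonyms. Alternatives included DESeq2 1.42.0 size factors.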

Additional observations from a re-analysis of the deposited data

How the results depend on the processing

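Under 13 alternative settings, the count of higher members was 14 to 21 of 41, other than with a limit of 4-fold in place of 2-fold. With 4-fold it was 4, against 1.88% of all tested genes, with 0 lower, against 1.01%. The count over all genes moved as well, from 971 of 16894 in the main setting. A 2-fold limit without an interval gave 17 members and 2278 of 16894 genes higher. The RPKM of the authors, also read without an interval, gave 20 members and 2240 of 16573 genes higher. That reading left out genes with an RPKM of 0 in either library. With a limit of 1.5-fold there were 21 higher and 2 lower, GBP2 being added to EPSTI1, against 10.4% and 9.17% of all tested genes. The median log2 ratio of the members was 0.92 with total count scaling, 0.92 with upper quartile scaling and 0.92 from the RPKM of the authors, against 0.84, and the median of all tested genes moved by a like amount, to 0.09 in each of these, against 0.02. Under these 3, GBP1 and IFIT5 had log2 ratios just above 0 rather than just below. LGALS3BP was called higher under all 3. Relative to the 50 closest genes, GBP3 and OAS3 were also above 0. DESeq2 size factors, minimums of 1 or 50 reads, a 99% interval, undivided counts and 2 added fragments kept all 15 calls and added none. Of 369 values of single members under the 9 alternatives that recompute the ratio, 56 lay outside the interval of the value reported, and no called member changed sign. Depth limits IFITM1, EPSTI1 and ISG20, which had under 100 fragments in all. No paired analysis was possible because each line had 1 library.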
